A study of Mus musculus with 7 samples.

Results

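Primitive endoderm is the second lineage of the inner cell mass (ICM), and its regulators were examined here as a group of 8 genes: the transcription factors Gata6, Gata4, Sox17, Sox7, Hnf4a, Foxa2 and Hhex, and the receptor tyrosine kinase gene Pdgfra. The genes were taken by symbol as known regulators of the lineage, with earlier results of these data known, and each matched 1 row of a table of 52636 genes. They are taken from early to late in the lineage, Gata6 and Pdgfra first and Sox7 and Foxa2 last.

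In the blastocyst, FGF4 from epiblast precursors acts through FGF receptors and ERK to direct other ICM cells to primitive endoderm. Those cells keep GATA6 and lose NANOG, and then switch on PDGFRA, SOX17, GATA4 and SOX7. GATA factors bind DNA through paired zinc fingers, SOX factors through an HMG box, FOXA2 through a forkhead domain and HHEX through a homeodomain, while HNF4A is a nuclear receptor.

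The study asked how transcription in the pre-implantation mouse epiblast responds when ERK is switched on. All libraries were labelled embryonic day 3.5 epiblast and came from embryos of genotype Sox2Cre;CRAFR26, which carry a cRAF construct that tamoxifen activates and a Cre transgene named for Sox2. Embryos were flushed at day 2.5 and kept for 24 h in 250 nM PD173074, an FGF receptor inhibitor, which all groups shared. The tamoxifen group (time label 4 h, 4 libraries) also received 250 nM 4-hydroxytamoxifen for 4 h, and the vehicle group (time label 0 h, 3 libraries) received ethanol for 4 h. Each library was a pool of 10 ICMs that had undergone immunosurgery to remove trophectoderm. The mouse line was made from ES cells of 2 clones, 4 and 8. Vehicle libraries were clone4_1, clone4_2 and clone8_1, and tamoxifen libraries were clone4_1, clone4_2, clone8_1 and clone8_2. Clone 8 thus has 1 vehicle library, the second having been discarded by the submitters. Which cells of an ICM carried the active construct was not measured, and in pooled tissue fewer cells of a type cannot be told apart from less RNA per cell.

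Total counts ranged from 22981498 to 42294719 per library. Vehicle clone8_1 stood apart: its 1164 protein-coding genes with transcripts under 1000 nt lay at a median of -1.29 on the log2 scale from the median library, against -0.038 to 0.22 in the other 6 libraries. The 8 regulators have median transcript lengths from 1618.5 nt (Hhex) to 5318.5 nt (Pdgfra), above that range. Vehicle clone8_1 and tamoxifen clone8_1 had the lowest mean correlation with the other libraries (0.929 and 0.931, against 0.944 to 0.955). Markers of all 3 blastocyst lineages were counted in each library. The summed level of 10 trophectoderm markers was 7986 to 10752 CPM (read counts scaled to a common library size with TMM factors) in vehicle and 6390 to 9160 CPM in tamoxifen libraries. That of 10 epiblast markers was 1956 to 2446 CPM and 2132 to 3004 CPM. Neither list had a gene at 0 in any library.

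Sox17 and Sox7 are close paralogs of the SOX F group, and the sequences below show how far reads from one could be taken for the other. The coding stretch of 150 bases in which they are most alike lies in the HMG box. In GRCm38 it is chr1:4492563-4493143 on the minus strand for Sox17 (exons 4 to 5 of 5) and chr14:63943950-63947860 on the plus strand for Sox7 (exons 1 to 2 of 2), each interrupted by an intron. Capitals mark the bases that differ, from GENCODE M21 transcripts.
Sox17: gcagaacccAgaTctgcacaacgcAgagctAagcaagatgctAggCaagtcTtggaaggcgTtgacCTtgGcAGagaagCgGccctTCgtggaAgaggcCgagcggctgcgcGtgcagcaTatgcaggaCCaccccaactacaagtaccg
Sox7: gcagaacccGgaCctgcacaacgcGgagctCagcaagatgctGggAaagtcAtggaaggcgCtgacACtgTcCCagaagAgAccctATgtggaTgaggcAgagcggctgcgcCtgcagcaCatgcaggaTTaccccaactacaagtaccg
The stretches were identical at 127 of 150 positions (84.7%), and the longest identical run anywhere in the coding sequences was 22 bases. The read length is not given in the sources used here. For Gata6 and Gata4 the most similar coding stretch of 150 bases was identical at 120 positions, with a longest run of 18 bases.

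The regulators differed widely in level and in how they stood between the groups. Gata6 and Pdgfra, the early genes, were abundant without tamoxifen, Hnf4a and Hhex were intermediate, Gata4 was low, and Sox7 and Foxa2 were close to undetected. Sox17 had a mean 5.99 times as high with tamoxifen, and its groups did not overlap. No regulator passed the test across all genes. By edgeR (quasi-likelihood test, p-values adjusted by Benjamini-Hochberg over every tested gene), 0 of 16248 genes (0%) were under 0.05. Before adjustment 970 genes were under 0.05, and DESeq2 called 4, none of them a regulator. Of the 8 regulators, 6 passed the expression filter. Of these, 1 (Sox17) was higher at an unadjusted p under 0.05, beside 2.69% of all tested genes, and 0 were lower, beside 3.28%. Sox17 was also the 1 regulator whose groups were separate, beside 3.71% of genes separate and higher and 4.74% separate and lower.

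**Figure D1:**
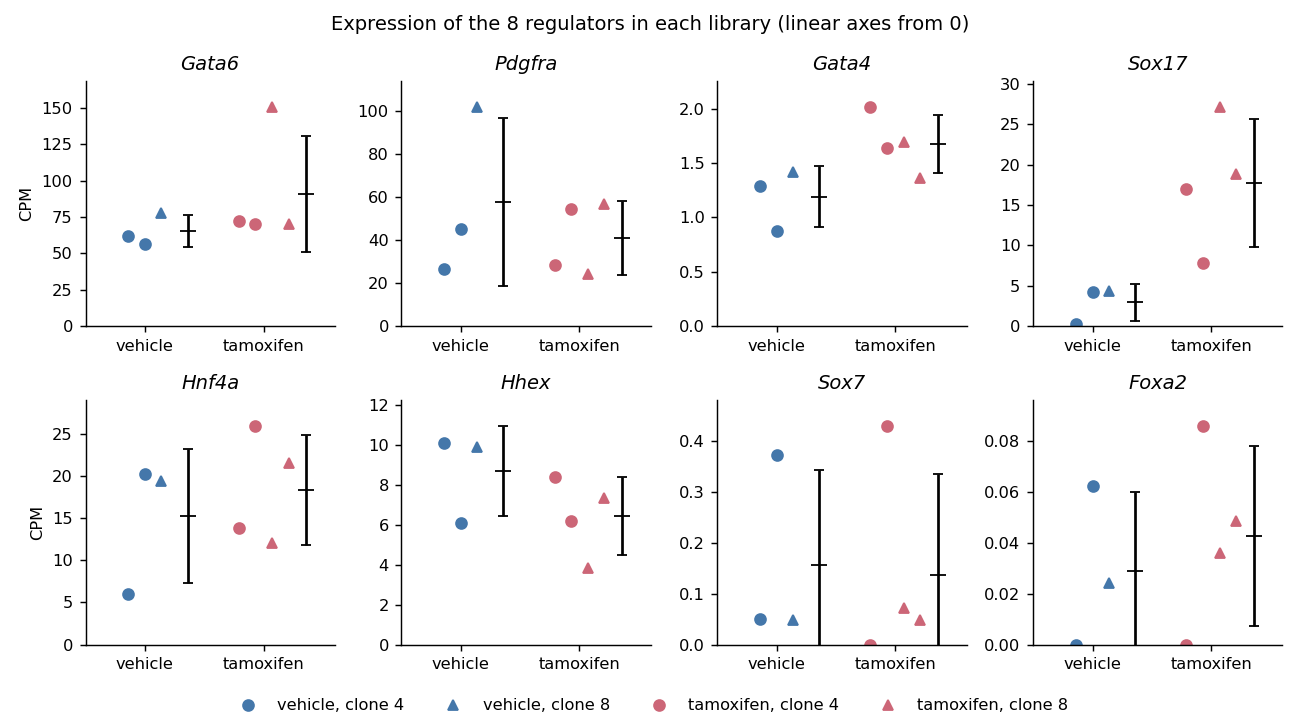
Each panel plots 1 regulator, with CPM on a linear axis from 0, vehicle libraries in blue and tamoxifen libraries in red. Circles are clone 4, triangles clone 8, and black bars the mean ± SD (n = 3 and 4), cut at 0 for Sox7 and Foxa2. The 4 tamoxifen libraries of Sox17 sit between 7.80 and 27.1 CPM, above the 3 vehicle libraries.

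Gata6 (ENSMUSG00000005836, chromosome 18, 11052064 to 11085635, plus strand), the earliest of these factors and needed to form the lineage, was the most abundant. It had 61.8, 56.7 and 77.6 CPM in vehicle clone4_1, clone4_2 and clone8_1. With tamoxifen it had 71.9, 70.0, 150.5 and 70.2 CPM in clone4_1, clone4_2, clone8_1 and clone8_2. The tamoxifen values of clone4_1, clone4_2 and clone8_2 lay within the vehicle range, and tamoxifen clone8_1 was alone above it. The log2 fold change was 0.47 ± 0.29 (SE; unadjusted p = 0.137, adjusted p = 0.802, edgeR). Without tamoxifen clone8_1 it was 0.12 ± 0.17 (SE). A gene on the other strand, 1010001N08Rik, overlaps Gata6 and had 250 to 732 counts per library against 1626 to 4169 for Gata6. Whether counting used strand is not given in the sources used here.

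Pdgfra (ENSMUSG00000029231, chromosome 5, 75152292 to 75198215, plus strand) encodes the receptor for PDGF-A that marks primitive endoderm precursors. Its vehicle values were 26.5, 44.9 and 102 CPM in clone4_1, clone4_2 and clone8_1. Its tamoxifen values were 28.4, 54.5, 24.1 and 57.0 CPM in clone4_1, clone4_2, clone8_1 and clone8_2. The highest and the lowest of the 7 values were thus the 2 libraries numbered clone8_1, and the groups overlapped. The log2 fold change was -0.50 ± 0.45 (SE; adjusted p = 0.836, edgeR). Its direction rested on vehicle clone8_1, without which it was 0.19 ± 0.39 (SE).

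Pdgfa, which encodes a ligand of this receptor, was also counted in every library. Its mean was 77.8 ± 43.1 CPM in the 3 vehicle pools and 65.1 ± 16.7 CPM (both SD) in the 4 tamoxifen pools. Of the 6 PDGF ligand and receptor genes other than Pdgfra, 3 passed the filter, 0 had an unadjusted p under 0.05, and their median log2 fold change was -0.09, beside 0.019 for all tested genes. Pdgfc, Pdgfd and Pdgfrb, the other receptor gene, did not pass.

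Sox17 (ENSMUSG00000025902, chromosome 1, 4490931 to 4497354, minus strand), which maintains the primitive endoderm programme, showed the largest difference among the regulators. It had 0.298, 4.23 and 4.33 CPM in vehicle clone4_1, clone4_2 and clone8_1, from 12, 136 and 178 counts. With tamoxifen it had 16.9, 7.80, 27.1 and 18.9 CPM in clone4_1, clone4_2, clone8_1 and clone8_2, from 181 to 778 counts. Every tamoxifen library lay above every vehicle library, and the lowest tamoxifen value was in clone4_2. The 95% exact binomial interval of vehicle clone4_1, which covers counting error only, was 0.154 to 0.520 CPM, below the other vehicle libraries (lowest bound 3.55 CPM).

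The log2 fold change of Sox17 was 2.58 ± 0.75 (SE; unadjusted p = 0.00617, adjusted p = 0.794, edgeR). The adjusted p depended on the test, though Sox17 was called by neither. By DESeq2 the fold change of Sox17 was 2.57 ± 0.64 (SE, unadjusted p = 5.66e-05, adjusted p = 0.0909). Its spread within groups was also the widest of the 6 tested regulators. The pooled SD was 1.44 on the log2 scale, above that of 91.1% of tested genes, whose median was 0.471. Without vehicle clone4_1 the fold change was 2.03 ± 0.48 (SE; adjusted p = 0.552), and with clone 4 alone it was 2.46 ± 1.01 (SE; adjusted p = 0.628). In clone 8, 1 vehicle library had 4.33 CPM and the 2 tamoxifen libraries averaged 23.0 CPM, which has no test of its own. All 10 trophectoderm markers were lower in mean with tamoxifen (median log2 fold change -0.30), as were 7840 of all 16248 tested genes. Of the 10, 3 (Gata3, Krt7 and Elf3) were lower at an unadjusted p under 0.05, beside 3.28% of all tested genes. The groups were separate and lower for 3 of the 10, beside 4.74% of all tested genes. The summed level of the 10 was highest in vehicle clone4_1 (10752 CPM), the library with the least Sox17. It was next highest in tamoxifen clone8_1 (9160 CPM), the library with the most Sox17. Krt8 and Krt18 were the largest parts of that sum (3016 and 3954 CPM in tamoxifen clone8_1). In mean log2 CPM, weighing each gene alike, the 10 were at 8.15, 8.03 and 7.96 in vehicle clone4_1, clone4_2 and clone8_1. They were at 7.69, 7.41, 7.95 and 7.49 in tamoxifen clone4_1, clone4_2, clone8_1 and clone8_2. By that measure the groups did not overlap, with tamoxifen clone8_1 just below vehicle clone8_1. The part of these markers in the Sox17 difference was not tested.

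**Figure D2:**
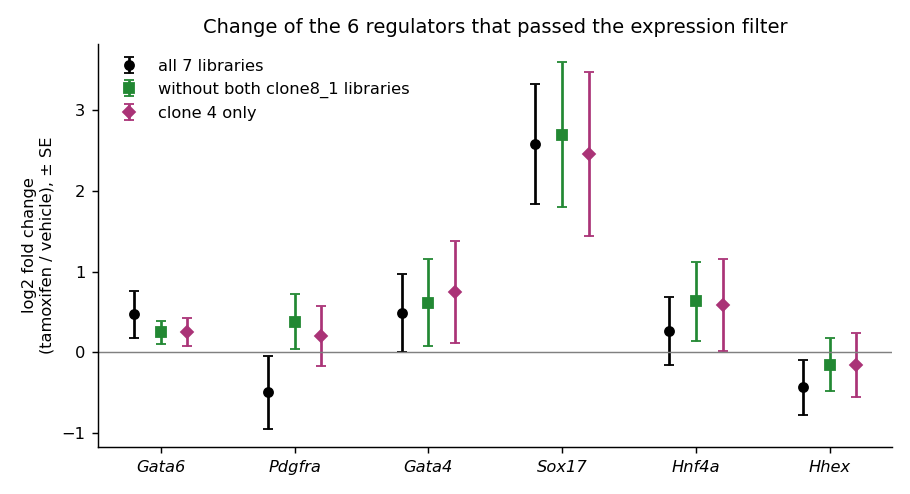
Points are log2 fold changes of tamoxifen over vehicle with bars of 1 SE, for the 6 regulators that passed the filter, from all 7 libraries (black), without both clone8_1 libraries (green) and from clone 4 alone (purple). Sox17 lies at 2.46 to 2.70 in the 3 fits, while Pdgfra is at -0.50 in the first and at 0.38 and 0.20 in the others.

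Sox17 was also set against Gata6 within each library. Sox17 stood at 0.482%, 7.46% and 5.58% of the Gata6 CPM in vehicle clone4_1, clone4_2 and clone8_1. With tamoxifen it stood at 23.6%, 11.1%, 18.0% and 26.9% in clone4_1, clone4_2, clone8_1 and clone8_2. All tamoxifen values exceeded all vehicle values. The difference of the 2 genes in log2 CPM averaged -5.11 ± 2.04 over the 3 vehicle pools and -2.40 ± 0.56 (both SD) over the 4 tamoxifen pools, a shift of 2.71. Without vehicle clone4_1, which had 12 Sox17 counts, the shift was 1.54. The pair was chosen with the difference of Sox17 known, so these values restate it and are given as a description, with no test.

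Gata4 (ENSMUSG00000021944, chromosome 14, 63198922 to 63271692, minus strand) follows Gata6 in the lineage and was far less abundant. Its vehicle values were 1.29, 0.871 and 1.41 CPM, from 28 to 58 counts. Its tamoxifen values were 2.01, 1.64, 1.70 and 1.36 CPM, from 38 to 85 counts. Tamoxifen clone8_2 fell within the vehicle range and the other 3 lay above it. The log2 fold change was 0.49 ± 0.48 (SE; adjusted p = 0.839, edgeR), about the size of its error.

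Hnf4a (ENSMUSG00000017950, chromosome 2, 163506808 to 163572910, plus strand), a regulator of metabolic genes in visceral endoderm, had 6.05, 20.2 and 19.4 CPM in vehicle clone4_1, clone4_2 and clone8_1. It had 13.8, 26.0, 12.1 and 21.5 CPM in tamoxifen clone4_1, clone4_2, clone8_1 and clone8_2. Vehicle clone4_1 was the lowest of the 7 and the other values of the groups interleaved. The log2 fold change was 0.27 ± 0.42 (SE; adjusted p = 0.897, edgeR), and without vehicle clone4_1 it was -0.13 ± 0.34 (SE). Hnf4aos, on the other strand, had 2 to 37 counts per library.

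Hhex (ENSMUSG00000024986, chromosome 19, 37434810 to 37440731, plus strand), a homeobox gene of early endoderm, had 10.1, 6.10 and 9.91 CPM in the vehicle libraries. With tamoxifen it had 8.40, 6.20, 3.83 and 7.35 CPM. The lowest value was tamoxifen clone8_1, where Gata6 was highest. The log2 fold change was -0.43 ± 0.34 (SE; adjusted p = 0.814, edgeR).

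The late genes were at the limit of detection. Sox7 (ENSMUSG00000063060, chromosome 14, 63943673 to 63950732, plus strand) had 2, 12 and 2 counts in the vehicle libraries and 0, 10, 2 and 2 counts in the tamoxifen libraries. Its highest values were both in libraries numbered clone4_2, 1 of each group. In a fit without the filter its log2 fold change was -0.22 ± 1.57 (SE; adjusted p = 0.983, edgeR). Foxa2 (ENSMUSG00000037025, chromosome 2, 148042877 to 148046969, minus strand) had at most 2 counts in any library and 8 in all, so no fold is given. A count of 0 allows up to 3 counts, which is 0.0710 to 0.129 CPM in these libraries. At these counts a fall or a small change in either gene could not be seen.

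Levels were compared between genes per kilobase of the median transcript. Gata6 had a median of 21.7 CPM per kilobase (17.5 to 46.5 over 7 libraries), a mean level above 77.7% of tested genes. Pdgfra followed with 8.45 (4.53 to 19.1) and was below Gata6 in 7 of 7 libraries. Next came Hhex with 4.54 (2.36 to 6.24), Hnf4a with 4.45 (1.39 to 5.96) and Sox17 with 3.06 (0.117 to 10.6) CPM per kilobase. These 3 could not be ordered: Hhex exceeded Hnf4a in 3 of 7 libraries, with a mean log2 ratio of 0.29 ± 0.95 (SD), and Hnf4a exceeded Sox17 in 4 of 7. Among the 8 genes, Sox17 came directly after Gata6 in tamoxifen clone4_1 and clone8_1, whereas Pdgfra, Hhex and Hnf4a all lay above it in the 3 vehicle libraries and in tamoxifen clone4_2. Gata4, at 0.419 (0.258 to 0.596), was below Sox17 in 6 of 7 libraries, the exception being vehicle clone4_1. With the longest transcript in place of the median, the mean level of Hhex was 1.90 instead of 4.58 CPM per kilobase.

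**Figure D3:**
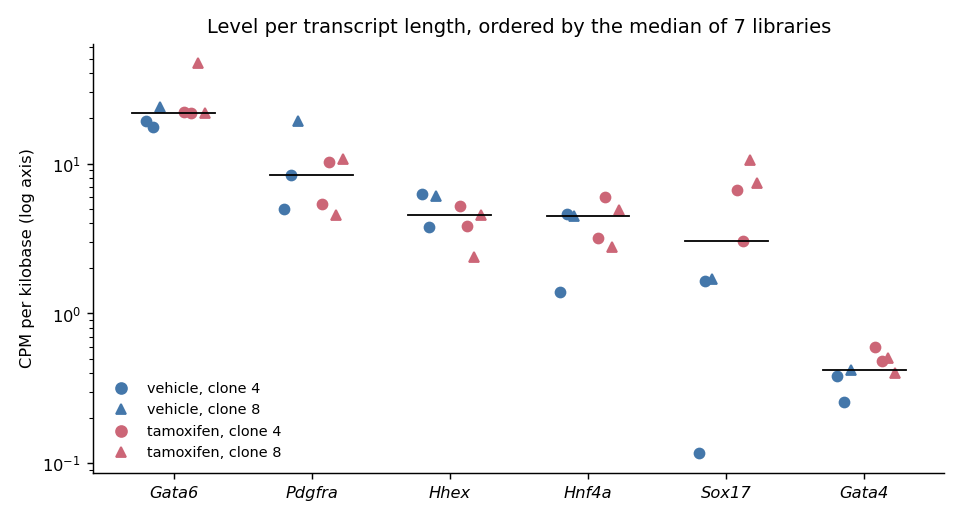
CPM per kilobase of transcript is on a log axis for the 6 regulators that passed the filter, ordered by their median over 7 libraries (black line). Vehicle libraries are blue and tamoxifen libraries red, with circles for clone 4 and triangles for clone 8. Gata6 is highest in every library, and Sox17 spans the widest range, from 0.117 to 10.6.

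Whether the regulators vary together could not be settled with 7 libraries. Over 15 pairs of the 6 tested genes and 7 libraries, 7 pairs had a Pearson r above 0 in log2 CPM. None had an exact permutation p under 0.05, and the smallest adjusted p was 0.554. The highest r was 0.69 for Pdgfra with Hnf4a (exact permutation p = 0.0694, Spearman rho 0.71 with exact permutation p = 0.0881, adjusted p = 0.554 and 0.411). Leaving out the 2 libraries farthest from the median of Pdgfra gave r = 0.88. By rank the highest pair was Gata6 with Gata4, with rho = 0.75 (exact permutation p = 0.0663, adjusted p = 0.411), r = 0.50 (exact permutation p = 0.229, adjusted p = 0.571) and r = 0.34 without the 2 farthest libraries. Gata6 with Sox17 had r = 0.55 (exact permutation p = 0.185) and rho = 0.71 (exact permutation p = 0.0881), with adjusted p = 0.554 and 0.411, and r = 0.66 without the 2 farthest libraries. Gata6 with Pdgfra, the early pair, had r = -0.31 (exact permutation p = 0.521) and rho = -0.04 (exact permutation p = 0.963), with adjusted p = 0.835 and 0.963. That value rested on the 2 libraries farthest from the median of Gata6, without which r was 0.76.

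Start-site windows of Pdgfra and Hnf4a, the pair with the highest Pearson r, are shown for their sequence. Each is 300 bases, from 250 before to 50 after a RefSeq start (GRCm38.p6, plus strand). They are chr5:75152001-75152300 and chr2:163506607-163506906, the latter the upstream of 2 Hnf4a starts, which counts per gene do not separate. Capitals mark a GATA motif.
Pdgfra: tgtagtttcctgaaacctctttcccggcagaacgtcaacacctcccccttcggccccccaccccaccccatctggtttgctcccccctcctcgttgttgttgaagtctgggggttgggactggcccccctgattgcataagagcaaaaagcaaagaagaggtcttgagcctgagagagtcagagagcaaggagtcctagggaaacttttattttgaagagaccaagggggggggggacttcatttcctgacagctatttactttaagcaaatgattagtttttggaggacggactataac
Hnf4a: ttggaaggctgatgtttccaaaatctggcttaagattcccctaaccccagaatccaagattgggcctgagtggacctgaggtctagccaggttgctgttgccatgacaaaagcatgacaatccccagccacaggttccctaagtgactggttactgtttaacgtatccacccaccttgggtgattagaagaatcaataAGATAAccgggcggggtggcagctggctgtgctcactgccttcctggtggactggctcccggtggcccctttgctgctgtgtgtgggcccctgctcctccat
The windows were searched on both strands for 4 kinds of motif. The GATA motif was AGATAA or else TGATAA, the SOX motif was AACAAT, the ETS motif was spelled CCGGAA, and the AP-1 motif was spelled TGACTCA. No match overlapped another. This upstream window of Hnf4a held 1 GATA motif, 52 bases before the start, and none of the others. The window of the other Hnf4a start (chr2:163546905-163547204) held none of the 4. Pdgfra held none of the 4. Of 32851 windows of this length, 18.6% held GATA, 10.7% SOX, 14.9% ETS and 5.20% AP-1 motifs. The table of windows matched 4 of the 8 regulators.

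The effect of tamoxifen was also compared between the clones. In a fit with an interaction of clone and condition, 0 of the 6 tested regulators were called, beside 3.16% of 16248 genes. That test rests on vehicle clone8_1. The largest interaction was that of Pdgfra, with a change -1.54 ± 0.72 (SE) lower in clone 8 on the log2 scale (unadjusted p = 0.0629, adjusted p = 0.368, edgeR). For Sox17 it was -0.06 ± 1.37 (SE; adjusted p = 0.991, edgeR). Within clone 4, with 2 libraries a group, 0 of 16060 genes (0%) were called.

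Genes that act before, with or after these regulators showed no common direction. Of 18 matrix and receptor genes of primitive endoderm, all passed the filter, 10 were higher and 8 lower in mean. Their median log2 fold change was 0.0068, beside 0.019 for all tested genes. At an unadjusted p under 0.05 there were 2 higher and 2 lower, beside 2.69% and 3.28% of all tested genes, and none was called. Lama1, a laminin chain of early basement membrane, had 3.92, 5.20 and 3.51 CPM in vehicle clone4_1, clone4_2 and clone8_1. With tamoxifen it had 11.6, 16.2, 8.44 and 6.75 CPM, all above the vehicle libraries, though in another order than Sox17. Fgfr1, a receptor that carries the FGF4 signal, had 41.8 to 46.6 CPM in vehicle and 50.6 to 69.9 CPM in tamoxifen libraries. Lrp2 (megalin), an endocytic receptor, was lower, with 363 to 397 CPM and 213 to 338 CPM. Nid2, a basement membrane protein, was at 27.5 CPM in vehicle clone4_1 and between 9.70 and 14.8 CPM in the other 6 libraries. The log2 fold changes of Lama1, Fgfr1, Lrp2 and Nid2 were 1.35 ± 0.36, 0.40 ± 0.17, -0.47 ± 0.19 and -0.71 ± 0.32 (SE), and edgeR gave each the same adjusted p, 0.794.

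**Figure D4:**
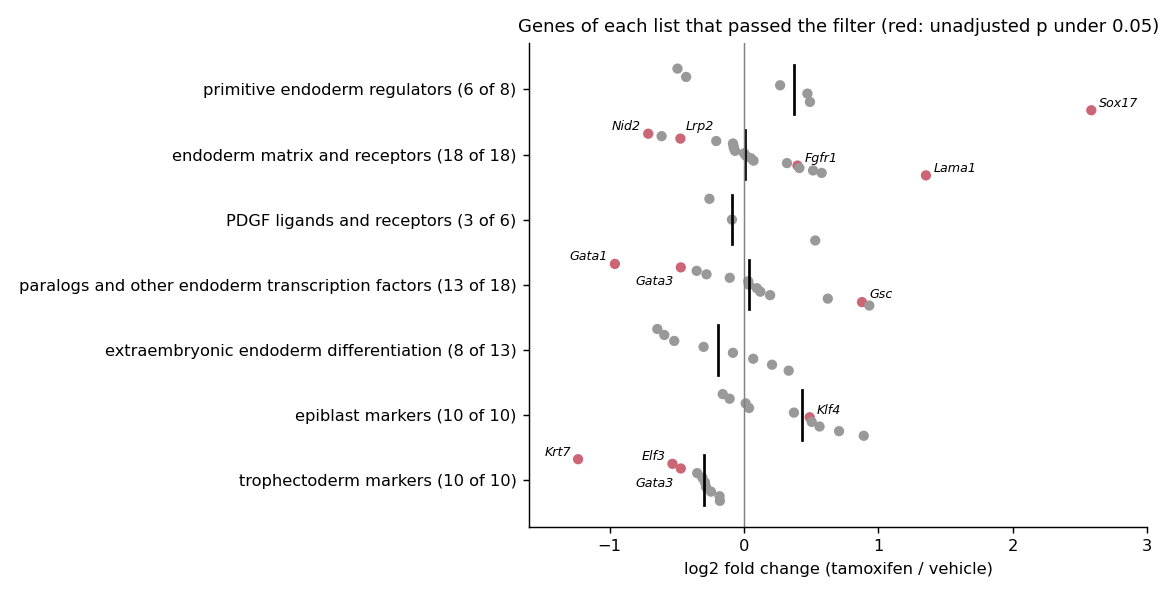
Each point is the log2 fold change (tamoxifen over vehicle, x axis) of a gene that passed the filter, in rows by list with the number tested of the number listed. Red points have an unadjusted p under 0.05 and black lines are list medians. Sox17 at 2.58 lies beyond every other gene shown, and all 10 trophectoderm markers lie below 0.

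Of 18 paralogs and other endoderm factors, 13 passed the filter, 8 higher and 5 lower in mean, with a median log2 fold change of 0.036. Gata5, Sox18 and Hnf4g had 0 counts in every library, which allows up to 0.129 CPM in the shallowest. At an unadjusted p under 0.05, Gsc, a homeobox gene of the organiser, was higher (8.36 ± 1.29 CPM, SD, n = 3, against 15.4 ± 3.60 CPM, SD, n = 4). Gata1, the erythroid family member, was lower (13.7 ± 2.59 against 7.01 ± 2.17 CPM, SD), and so was Gata3, a trophectoderm factor (928 ± 87.3 against 669.7 ± 42.7 CPM, SD). Among all tested genes, 2.69% were higher and 3.28% lower at that unadjusted p. These 3 genes had groups that did not overlap, beside 3.71% of all tested genes separate and higher and 4.74% separate and lower. Their adjusted p-values were 0.794 (edgeR). Of 13 genes of later extraembryonic endoderm, 8 passed the filter, none had an unadjusted p under 0.05, and the median log2 fold change was -0.19. Of 10 epiblast markers, 8 were higher and 2 lower in mean (median log2 fold change 0.43), beside 8408 higher and 7840 lower among all tested genes. Klf4, 1 of the 10, was higher at an unadjusted p under 0.05, beside 2.69% of all tested genes. Afp and Ttr, which mark visceral endoderm, were at most 0.529 and 0.450 CPM in any library.

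The genes whose level over the 7 libraries was most like that of a regulator were sought among 8052 genes averaging at least 10 CPM. For Gata6 they were Sppl3, Pkp4, Mapk14, Gna15 and Diaph1, with Pearson r from 0.973 to 0.978. For Sox17 they were Reep3, Arhgef18, Keap1, Bag6 and Mfap1a, with r from 0.942 to 0.974. The 5 genes like Gata6 share its high value in tamoxifen clone8_1. The 5 genes like Sox17 share its lowest value in vehicle clone4_1, where Sox17 had 12 counts. Reep3, the gene most like Sox17, spanned a far smaller range, with 23.4 to 34.8 CPM in vehicle and 35.9 to 39.6 CPM in tamoxifen libraries. With 7 points drawn from so many genes, these are descriptions only.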

How the data were processed

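RNA from pools of 10 ICMs (2 ng per library) was sequenced after low-input amplification, per the labels' protocols. The authors deposited a table of unnormalised counts, with Ensembl gene IDs and a column for each library. The submitters' processing notes name STAR 2.5.3a, bcl2fastq 2.19.1 and mm10. The counting program, annotation, strand setting and read length are not given in the sources used here. Without molecular identifiers, counts are not independent molecules.

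Symbols, coordinates and lengths are from GENCODE M21 (GRCm38), which matched 52489 of 52636 IDs. Counts were tested with edgeR 4.0.16 (R 4.3.3): TMM factors, its expression filter applied by group, and a quasi-likelihood model holding condition alone, over all 7 libraries and 16248 genes. SEs are the fold change divided by the root of the F statistic. P-values were adjusted by Benjamini-Hochberg and called under 0.05. Log2 CPM used a prior count of 2. DESeq2 1.42.0 and limma-voom 3.58.1 were alternatives, as were other scalings, no filter, clone as a term, a replicate block and omitted libraries. Scripts were tested on simulated data with less spread between libraries than these data. How often a real change would be called here was not measured. Nothing says that libraries of a group came from separate litters, so p-values measure the spread between these pools. Named genes were the 8 regulators, list genes with an unadjusted p under 0.05, and the 5 genes most like Gata6 and Sox17. Pdgfa, Krt8, Krt18, Afp, Ttr and the list genes at 0 or below the filter were named after their values were seen. Members and lists were chosen with earlier results of these data known.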

Additional observations from a re-analysis of the deposited data

Results flagged for a closer look

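In the tamoxifen group of 4 libraries, 29 values of named genes were checked for a library far from the other 3, a check that chance passes about 1 time in 20 groups. Gata6 stood apart at 150.5 CPM in tamoxifen clone8_1, where the gap to the next library was 0.977 of the group's range. Sox7 stood apart at 0.431 CPM in tamoxifen clone4_2, from 10 counts. The 5 genes chosen for their likeness to Gata6 stood apart in tamoxifen clone8_1 as well: Sppl3 at 45.2 CPM, Pkp4 at 54.4 CPM, Mapk14 at 45.2 CPM, Gna15 at 21.1 CPM and Diaph1 at 78.1 CPM. They were selected for that shape and add nothing to it.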

How the results depend on the processing

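Sox17 kept its direction in all 17 alternatives (log2 fold change 2.03 to 3.28), was called in none of them and had an unadjusted p under 0.05 in each. Gata6, Gata4 and Hhex also kept their direction in all. The number of genes called was 0 in all 7 libraries, 4 with DESeq2 and 2 without both clone8_1 libraries. Pdgfra turned to 0.38 without both clone8_1 libraries and to 0.20 in clone 4 alone, and ranged from -0.86 to 0.19 when 1 library at a time was left out. Hnf4a ranged from -0.13 to 0.52 with 1 library left out, and was 0.63 without both clone8_1 libraries and 0.59 in clone 4 alone. Sox7 ranged from -1.91 to 1.38 and was 0.097 with clone as a term. The shift of Sox17 against Gata6 was 3.21 without both clone8_1 libraries and 1.54 (without vehicle clone4_1) to 3.40 with 1 library left out. Effects that differed between clones were called in 514 genes, in 991 without the filter and in 52 to 695 with 1 library left out (52 without tamoxifen clone4_2, 107 without tamoxifen clone4_1 and 267 without vehicle clone4_1). The cause of these moves was not tested. Same-numbered libraries did not deviate together (r = 0.0078, 0.021 and -0.068 over 16248 genes). The labels do not say whether a shared number pairs libraries, and these correlations cannot settle it. With a replicate block the log2 fold change of Sox17 was 2.91 ± 0.91 (SE) and no gene was called. Sox7 and Foxa2 had too few counts for a fall or a small change to be seen.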
